A study of Mus musculus with 6 samples.

Results

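Iron and heme handling in M2 macrophages (Mφs) was described through 10 genes of import, storage, export, breakdown and sensing: Hmox1, Blvrb, Cd163, Fth1, Ftl1, Slc40a1, Tfrc, Slc11a1, Slc11a2 and Ireb2. They were taken by symbol from a table of 41549 genes, each had a single row, and all 10 were among the 11933 genes with enough reads to be tested. They were listed by symbol, with earlier results of these data known.

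The cells were wild type bone marrow derived macrophages of young adult C57Bl/6 N mice, grown from marrow with M-CSF. They were transfected with an antisense oligonucleotide against 5′tRF-Glu(CTC), a piece of a glutamate tRNA that holds its 5′ end, or with a control oligonucleotide, and both groups then received IL-4 and IL-13, which drive the anti-inflammatory M2 state. Each group, αGlu and Ctr, had 3 mRNA libraries, and the comparison asks which transcripts differ when the fragment is blocked. The fragment itself was not measured in these libraries, so they hold no check of its blockade, and unpolarized Mφs were not analysed here. The paper reports by qPCR that the antisense lowered the fragment in such transfected Mφs. It does not tie that measurement to these libraries. The study describes independent experiments, but which mice or cultures gave each library was not stated in the sources used here. The p-values therefore measure the spread between these libraries, whatever its source.

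Macrophages recycle iron from aged red blood cells. Heme is opened by heme oxygenase into biliverdin, carbon monoxide and iron, and the iron is stored in ferritin or leaves through ferroportin, the product of Slc40a1. Iron regulatory proteins bind a hairpin, the iron-responsive element, when iron is scarce. A hairpin in the 5′ untranslated region (UTR) holds back translation, as in the ferritin and ferroportin mRNAs, whereas hairpins in the 3′ UTR protect the mRNA of the transferrin receptor from decay. RNA counts can show the second kind of control and not the first.

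The oligonucleotide and the elements are shown because they tie the treatment and the gene set to sequence. The antisense is written 5′ to 3′, and only the first 21 bases of the longer fragment are shown, where capitals mark bases 2 to 21, which pair with it:
antisense: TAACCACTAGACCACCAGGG
5′tRF-Glu(CTC), first 21 bases: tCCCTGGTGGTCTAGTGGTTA

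A hairpin pattern of this type, a bulged C, 5 paired bases, a loop of CAGTGN and the 5 bases that close the stem, was searched on the sense strand of GENCODE M21 transcripts (GRCm38). It was found in 4 of the 10 genes. Each 29-base site is written 5′ to 3′ on the strand of the gene with the loop in capitals. The plus or minus after the position is the strand:
Fth1, 5′ UTR, chr19:9982732-9982760 (+): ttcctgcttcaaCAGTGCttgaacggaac
Ftl1, 5′ UTR, chr7:45459779-45459807 (-): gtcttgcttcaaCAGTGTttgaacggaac
Slc40a1, 5′ UTR, chr1:45925465-45925493 (-): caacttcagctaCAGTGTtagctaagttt
Tfrc, 3′ UTR, chr16:32631219-32631247 (+): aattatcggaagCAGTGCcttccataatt
Tfrc, 3′ UTR, chr16:32631598-32631626 (+): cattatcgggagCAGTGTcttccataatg
Tfrc, 3′ UTR, chr16:32631663-32631691 (+): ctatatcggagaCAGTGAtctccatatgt
Tfrc, 3′ UTR, chr16:32631710-32631738 (+): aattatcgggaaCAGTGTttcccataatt

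The pattern occurs in the 5′ UTR of 31 of 20916 genes (0.148%) and in the 3′ UTR of 129 of 21707 genes (0.594%). No match was found in the other 6 genes, which says only that this strict pattern is not in their annotated UTRs. Hairpins that depart from it, for instance by a break in the stem, were not searched. A match is a description of sequence and not of binding.

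Total counts ranged from 17912831 to 30386653 reads per library. Across genes, log2 CPM gave a Pearson r of 0.978 to 0.988 for pairs of Ctr libraries and of 0.992 for αGlu 2 with αGlu 3. αGlu 1 stood apart from its own group, with an r of 0.929 against αGlu 2 and αGlu 3 and of 0.966 to 0.982 against the Ctr libraries. The chi-square statistic per gene was 31.5 and 26.7 for αGlu 1 against Ctr 2 and Ctr 3 and 74.6 against Ctr 1, 19.8 to 53.6 for pairs of Ctr libraries, and 252.8 and 250.6 for αGlu 1 against αGlu 2 and αGlu 3. The library labelled αGlu 1 was thus nearer to Ctr than to the group of its label, and no value in these libraries checks that label or the uptake of the antisense. Each comparison of all 6 libraries rests on the label as given, and the main results are also given without this library. All 8 macrophage markers were detected, with a summed level of 12178 to 13717 CPM in Ctr and of 13000 to 19220 CPM in αGlu. Lyz2 was the largest part of this sum, at 5694 to 11065 CPM. Cd68 and Mertk had negative log2 fold changes (-0.44, SE 0.25, and -0.08, SE 0.12), and the other macrophage markers had positive ones. Of the M2 genes, Retnla, a protein secreted by IL-4 treated Mφs, stood at 539.6, 245.5 and 289.1 CPM in Ctr 1, 2 and 3. It stood at 101.3 CPM in αGlu 1 and at 1 read in each of αGlu 2 and αGlu 3. By contrast, Arg1, the arginase that also marks M2 cells, stood at 24.3 to 45.2 CPM in Ctr and at 23.5 CPM in αGlu 1. In αGlu 2 and αGlu 3 it stood at 1886 and 1792 CPM. Mrc1 stood at 771.4 to 948.3 CPM in Ctr, at 840.3 CPM in αGlu 1 and at 1513 and 2379 CPM in αGlu 2 and αGlu 3. Chil3 overlapped between groups, with a log2 fold change of 0.50 (SE 0.33). Of the 4 M2 genes, only Retnla had a negative log2 fold change, so the M2 markers did not all move together. Erythroid markers summed to at most 0.287 CPM in any library, and Alas2, Hbb-bs, Hbb-bt and Slc4a1 had 0 reads in all 6. CPM here are counts scaled to a library size that was adjusted by TMM (trimmed mean of M-values). In bulk libraries, fewer cells that express a gene and less RNA per cell cannot be told apart.

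In the αGlu libraries, Fth1 and Slc11a1 were higher and Tfrc was lower than in all Ctr libraries. Hmox1 and Slc11a2 were higher and Slc40a1 was lower than in all Ctr libraries in αGlu 2 and αGlu 3, but not in αGlu 1. Ftl1, Blvrb and Ireb2 stayed within 1.29-fold of the Ctr mean in every αGlu library. With edgeR's quasi-likelihood test on all 6 libraries, 0 of the 10 genes were called at an adjusted p under 0.1 and a change above 2-fold. The background was 0% of the 11933 genes tested. At an unadjusted p under 0.05, 2 of 10 were higher (Fth1 and Slc11a1) and 1 was lower (Tfrc), against 12.7% and 11.9% of all genes and 24.7% in both directions. The groups did not overlap for the same 3 genes, against 14.2% of all genes for the higher and 15.9% for the lower direction, or 30.2% in both. The share of 3 in 10 was thus at the background. The median log2 fold change of the 10 genes was 0.23, and that of all genes tested was 0.016.

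Without αGlu 1, which was left out as 1 of the 6 single libraries in turn, the same test called 5 of the 10 genes, against 18.6% of 12340 genes tested. Hmox1, Fth1 and Cd163 rose and Slc40a1 and Tfrc fell in αGlu 2 and αGlu 3. With no limit on the fold, Slc11a1 and Slc11a2 joined them and 7 of 10 genes passed, against 49.1% of all genes. In that subset 9 of the 10 genes did not overlap between groups, against 65.9% of all genes. Leaving out any other single library gave 0 calls. αGlu 1 was the αGlu library nearest to Ctr. Without it the spread over genes (common dispersion) was 0.020, against 0.069 with all libraries. P-values without αGlu 1, here and below, rest on αGlu 2 and αGlu 3 and do not measure the spread of all αGlu libraries.

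**Figure D1:**
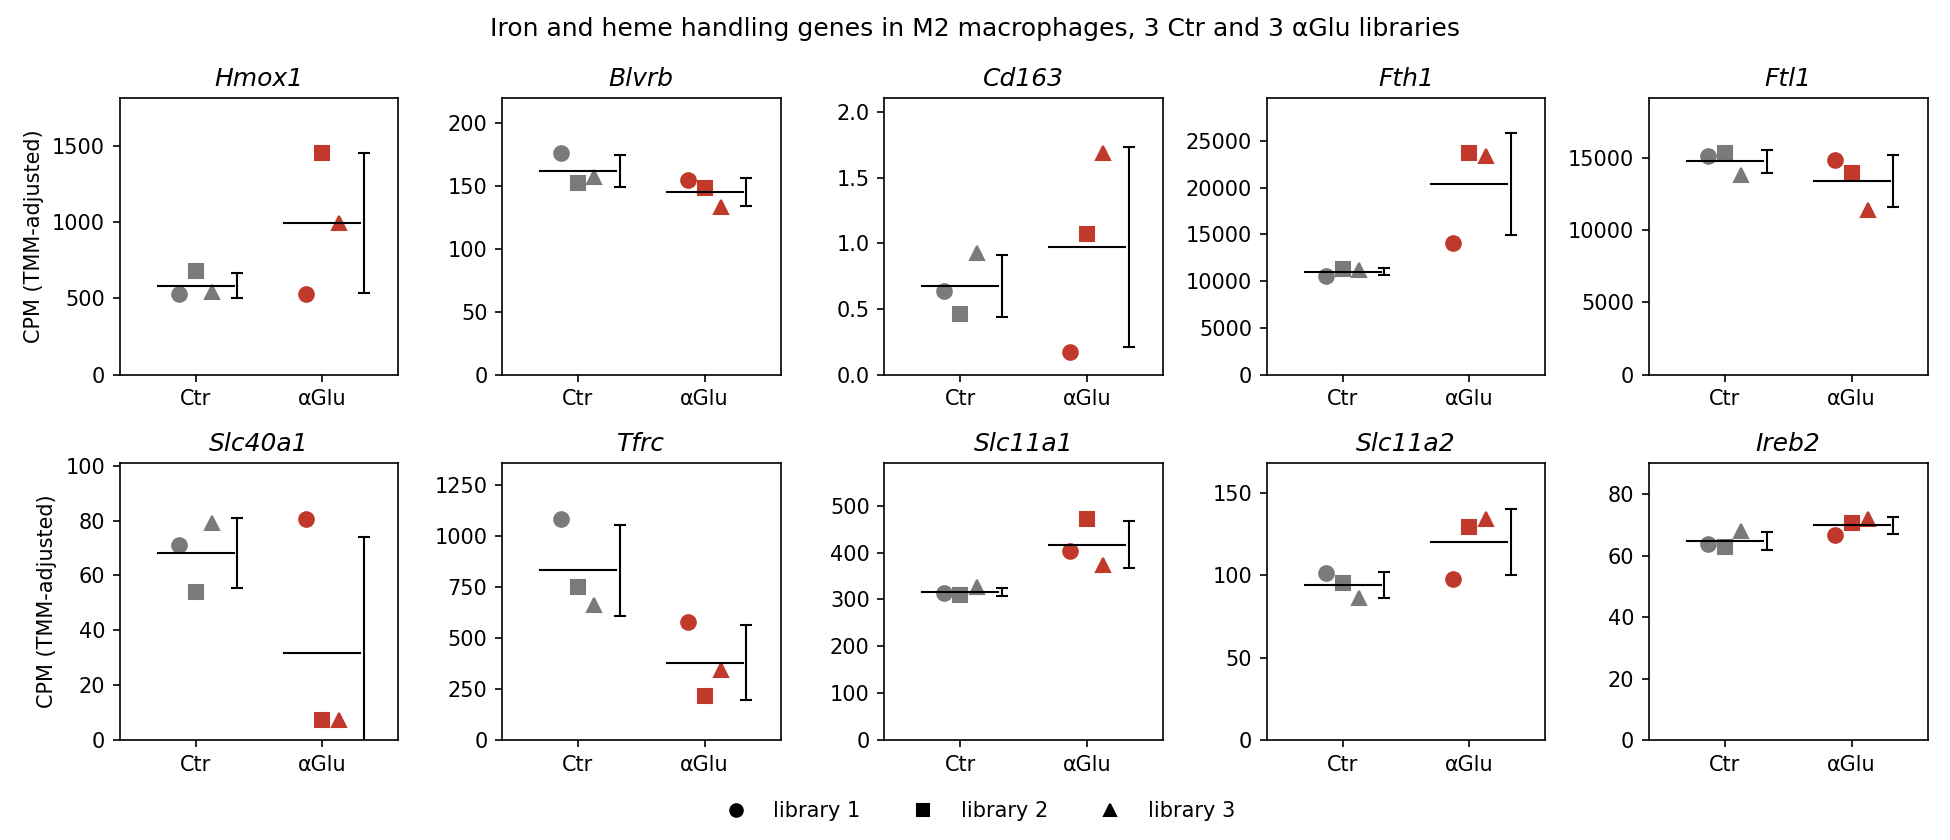
Level of each of the 10 genes (CPM, TMM-adjusted, linear axis from 0) in the 3 Ctr (grey) and 3 αGlu (red) libraries; the marker shape is the library number, the horizontal line the group mean and the side bar ± 1 SD (n = 3), which for Slc40a1 in αGlu runs below the axis. αGlu 1 lies with the Ctr libraries for Hmox1, Slc40a1 and Slc11a2, while Fth1, Slc11a1 and Tfrc show no overlap between groups.

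Heme breakdown was led by Hmox1, the inducible heme oxygenase (chr8:75093621-75100589, plus strand, GRCm38). Its level was 530.1, 677.9 and 541.8 CPM in Ctr 1, 2 and 3, and 529.9, 1450.1 and 996.0 CPM in αGlu 1, 2 and 3. αGlu 2 was at 2.49-fold and αGlu 3 at 1.71-fold of the Ctr mean, whereas αGlu 1 was just under the lowest Ctr library, so the groups overlapped. The means were 583 ± 82.2 CPM in Ctr and 992 ± 460 CPM in αGlu (SD, n = 3). The fitted log2 fold change was 0.77 with a standard error (SE) of 0.37 (edgeR adjusted p = 0.243). Without αGlu 1 it was 1.06 with an SE of 0.19 (edgeR adjusted p = 0.00587).

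Blvrb, a biliverdin reductase (chr7:27447978-27466144, plus strand), was read at 175.7, 152.1 and 157.2 CPM in Ctr 1, 2 and 3. Its level was 154.9, 148.0 and 133.0 CPM in αGlu 1, 2 and 3. Only αGlu 1 lay inside the Ctr range, and the other two lay below it. The log2 fold change was -0.15 with an SE of 0.10 (edgeR adjusted p = 0.361). Without αGlu 1 it was -0.21 with an SE of 0.10 (edgeR adjusted p = 0.151). Blvra, another biliverdin reductase gene from the wider lists below, was lower in αGlu without overlap. It stood at 140.5, 126.7 and 135.3 CPM in Ctr 1, 2 and 3. In αGlu 1, 2 and 3 it stood at 115.7, 65.1 and 72.1 CPM. Its log2 fold change was -0.67 with an SE of 0.23 (edgeR adjusted p = 0.170), and -0.97 without αGlu 1 (edgeR adjusted p = 0.000515).

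Since Hmox1 and Blvrb are read in the same libraries, their ratio does not depend on the scaling between libraries. The Hmox1 to Blvrb ratio in RPKM, the deposited reads scaled to exon length and library size, was 4.79, 7.08 and 5.47 in Ctr 1, 2 and 3. In αGlu 1 the ratio was 5.44, inside the Ctr range. In αGlu 2 and αGlu 3 it was 15.6 and 11.9, above every Ctr library.

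Cd163, the receptor for complexes of haptoglobin and hemoglobin (chr6:124304656-124330527, plus strand), was the least expressed of the 10 genes. It had 14, 11 and 20 reads in Ctr 1, 2 and 3, and 3, 34 and 46 reads in αGlu 1, 2 and 3. In CPM this was 0.636, 0.460 and 0.928 in Ctr 1, 2 and 3 and 0.172, 1.07 and 1.69 in αGlu 1, 2 and 3. The lowest value and both of the highest values of the 6 libraries came from the αGlu group. With all libraries, the log2 fold change was 0.57 with an SE of 0.72 (edgeR adjusted p = 0.623). Without αGlu 1 it was 1.02 with an SE of 0.41 (adjusted p = 0.0916), and without αGlu 3 the sign turned to -0.034. At this depth no difference in Cd163 between the groups was detectable with all 6 libraries.

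Ferritin was the most abundant product of the set. Fth1 encodes the heavy chain, which oxidizes iron (chr19:9980598-9985098, plus strand). Its level was 10556, 11330 and 11150 CPM in Ctr 1, 2 and 3, and 14072, 23667 and 23395 CPM in αGlu 1, 2 and 3. All 3 αGlu libraries were above all Ctr libraries, αGlu 1 at 1.28-fold of the Ctr mean, αGlu 2 at 2.15-fold and αGlu 3 at 2.12-fold. The means were 11012 ± 405 CPM in Ctr and 20378 ± 5463 CPM in αGlu (SD, n = 3), so the αGlu libraries varied more among themselves. The fit gave a log2 fold change of 0.89 with an SE of 0.32 (edgeR adjusted p = 0.180). Without αGlu 1 it was 1.09 with an SE of 0.10 (adjusted p = 0.000546). DESeq2 on all 6 libraries gave 0.88 with an adjusted p of 0.00556, and a change under 2-fold is not called.

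Ftl1 encodes the light chain, which aids the formation of the iron core (chr7:45457944-45459884, minus strand). The gene stood at 15125, 15326 and 13833 CPM in Ctr 1, 2 and 3 and at 14855, 13956 and 11434 CPM in αGlu 1, 2 and 3. αGlu 1 and αGlu 2 lay inside the Ctr range and αGlu 3 below it. The log2 fold change was -0.14 with an SE of 0.26 (edgeR adjusted p = 0.751), and -0.22 with an SE of 0.13 without αGlu 1 (adjusted p = 0.228). The deposited table holds 1 row named as a copy of this gene, Ftl1-ps1, with at most 0.187% of the Ftl1 reads. Copies under other names were not searched. How reads that fit several ferritin copies were assigned was not given in the sources used here.

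Both ferritin mRNAs carry the same type of 5′ element, shown above, and their levels were compared within each library. The Fth1 to Ftl1 ratio in RPKM was 0.270, 0.286 and 0.311 in Ctr 1, 2 and 3. In αGlu 1, 2 and 3 it was 0.366, 0.655 and 0.790, above every Ctr library. Fth1 took 1.05%, 1.08% and 1.08% of all reads in Ctr 1, 2 and 3. In αGlu 1, 2 and 3 it took 1.37%, 2.47% and 2.501%. By reads it ranked as gene 8, 7 and 7 of the table in Ctr 1, 2 and 3, as gene 5 in αGlu 1 and as gene 1 in both αGlu 2 and αGlu 3. Ftl1 took 1.22% to 1.499% of the reads across all 6 libraries.

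Slc40a1, which encodes ferroportin, the exporter of iron from the cell (chr1:45908068-45926523, minus strand), had the widest ratio between αGlu libraries of the 10 genes. It was read at 71.2, 54.1 and 79.3 CPM in Ctr 1, 2 and 3 and at 80.8, 7.18 and 7.23 CPM in αGlu 1, 2 and 3. αGlu 1 was above every Ctr library, whereas αGlu 2 and αGlu 3 were 9.50-fold and 9.44-fold below the Ctr mean. These 2 libraries had 228 and 197 reads of the gene, so the values are far above the floor of 3 reads. With all libraries, the log2 fold change was -1.12 with an SE of 0.98 (edgeR adjusted p = 0.481). Without αGlu 1 it was -3.25 with an SE of 0.19 (adjusted p = 7.88e-05), a 9.49-fold lower level. DESeq2 gave no p for this gene with all 6 libraries.

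Tfrc, the transferrin receptor that brings in iron bound to transferrin (chr16:32608920-32632794, plus strand), was lower in αGlu. It stood at 1084.3, 747.9 and 661.0 CPM in Ctr 1, 2 and 3 and at 575.6, 215.6 and 343.6 CPM in αGlu 1, 2 and 3. All 3 αGlu libraries were below all Ctr libraries, although both groups were spread, with means of 831 ± 224 CPM in Ctr and 378 ± 183 CPM in αGlu (SD, n = 3). The fit gave a log2 fold change of -1.14 with an SE of 0.39 (edgeR adjusted p = 0.174), and without αGlu 1 it was -1.58 with an SE of 0.29 (adjusted p = 0.00660). Tfrc was the 1 gene of the 10 that other tests called on all 6 libraries. DESeq2 gave -1.14 with an adjusted p of 0.0453, where it called 8.16% of 13707 genes. An edgeR likelihood-ratio test gave an adjusted p of 0.0760, where it called 7.53% of 11933 genes.

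The Tfrc to Slc40a1 ratio, an importer over the exporter in RPKM, was 22.2, 20.1 and 12.1 in Ctr 1, 2 and 3. It was 10.4 in αGlu 1, below all Ctr libraries, and 43.7 and 69.2 in αGlu 2 and αGlu 3, above all of them. Both genes were lower in αGlu 2 and αGlu 3, Slc40a1 by the larger fold.

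Slc11a1 encodes a divalent metal transporter of the phagosome (chr1:74375195-74386062, plus strand), and mice of C57BL/6 strains are known to carry a loss-of-function substitution in its protein. Its mRNA was read at 313.3, 308.5 and 325.6 CPM in Ctr 1, 2 and 3 and at 403.6, 472.5 and 374.0 CPM in αGlu 1, 2 and 3. Every αGlu library was above every Ctr library, at 1.18-fold to 1.496-fold of the Ctr mean. The log2 fold change was 0.40 with an SE of 0.12 (edgeR adjusted p = 0.160), the smallest adjusted p of the 10 genes. It was nearly the same without αGlu 1, at 0.42 with an SE of 0.12 (adjusted p = 0.0321). DESeq2 gave an adjusted p of 0.0269 on all 6 libraries, under the limit for the fold.

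Slc11a2 encodes DMT1, which moves ferrous iron out of the endosome (chr15:100387898-100425072, minus strand). It stood at 101.6, 95.4 and 86.0 CPM in Ctr 1, 2 and 3 and at 97.5, 129.1 and 134.5 CPM in αGlu 1, 2 and 3. αGlu 1 lay inside the Ctr range and the other two above it. With all libraries, the log2 fold change was 0.35 with an SE of 0.15 (edgeR adjusted p = 0.205), and 0.48 with an SE of 0.09 without αGlu 1 (adjusted p = 0.00891). The ratio of Slc11a1 to Slc11a2 in RPKM was 5.29 to 6.49 in Ctr and 4.77 to 7.10 in αGlu, so the ranges overlapped.

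Ireb2 encodes the iron regulatory protein IRP2, whose amount is known to be set by protein decay (chr9:54863789-54912530, plus strand). It varied least, with 63.8, 62.7 and 68.2 CPM in Ctr 1, 2 and 3 and 66.9, 70.6 and 72.1 CPM in αGlu 1, 2 and 3. The fit gave a log2 fold change of 0.11 with an SE of 0.07 (edgeR adjusted p = 0.364). Without αGlu 1 it was 0.13 with an SE of 0.07 (adjusted p = 0.197).

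**Figure D2:**
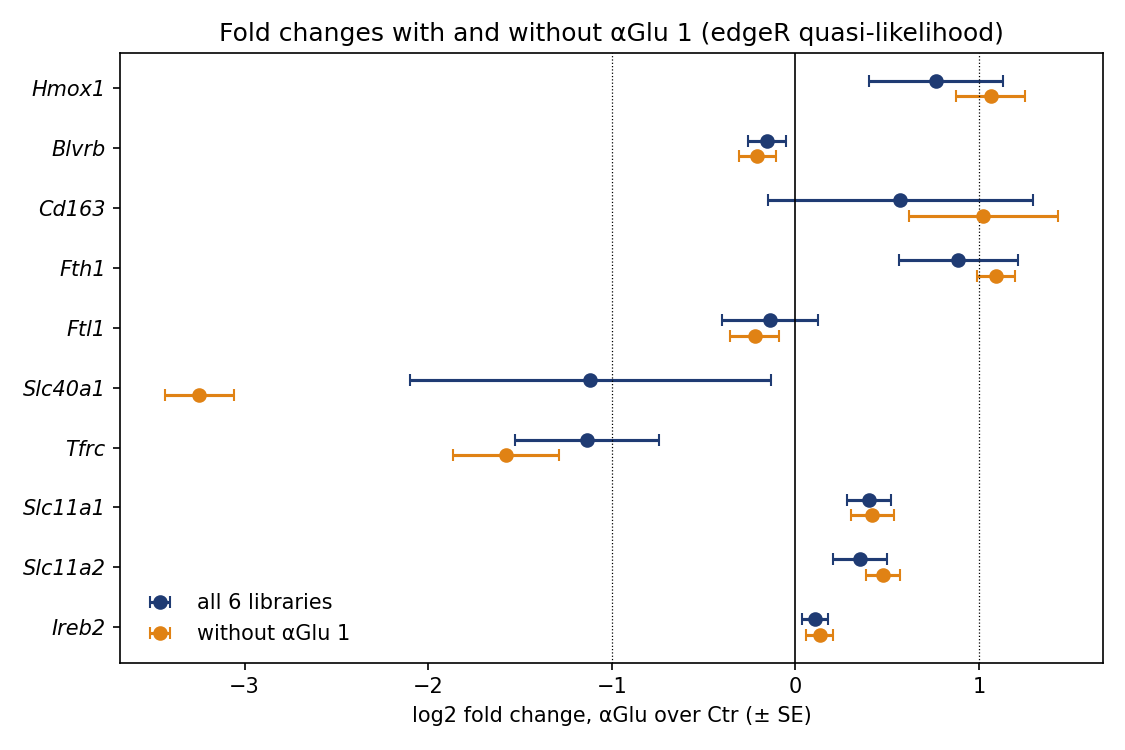
Log2 fold change of αGlu over Ctr (edgeR quasi-likelihood) for the 10 genes with all 6 libraries (blue) and without αGlu 1 (orange); bars are ± 1 SE and dotted lines mark a 2-fold change. Slc40a1 moves from -1.12 to -3.25 when αGlu 1 is left out, while Slc11a1 stays at 0.40 and 0.42.

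Levels of different genes were compared per length of exon. In Ctr the order by mean RPKM was Ftl1 (10063 ± 550, SD, n = 3), Fth1 (2899 ± 51.5), Hmox1 (304 ± 35.0), Tfrc (123 ± 35.6), Slc11a1 (77.9 ± 3.45), Blvrb (53.2 ± 5.35), Slc11a2 (13.6 ± 1.28), Slc40a1 (6.94 ± 1.43), Ireb2 (6.26 ± 0.36) and Cd163 (0.113 ± 0.041). Slc40a1 and Ireb2 were the only neighbours whose Ctr libraries overlapped. Ftl1 and Fth1 exceeded 99.99% and 99.9% of the expressed genes by mean RPKM, and Cd163 exceeded 2.64%. The αGlu libraries gave another order at 2 places, since Slc11a1 (108.5 ± 14.2 RPKM) stood above Tfrc (58.3 ± 25.5 RPKM), without overlap. Tfrc and Blvrb overlapped there, as did Ireb2 and Slc40a1. Slc40a1, at a mean of 3.26 RPKM, stood under Ireb2, at 7.12, by its values in αGlu 2 and αGlu 3 of 0.781 and 0.805 RPKM. In αGlu 1 it was 8.19 RPKM and stood above Ireb2, at 6.44. The deposited TPM gave the same orders, which is no independent check, since TPM rescales RPKM by a constant per library. Together the 10 genes took 2.61% to 2.78% of the reads in Ctr and 3.002%, 4.19% and 3.94% in αGlu 1, 2 and 3, most of it ferritin.

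**Figure D3:**
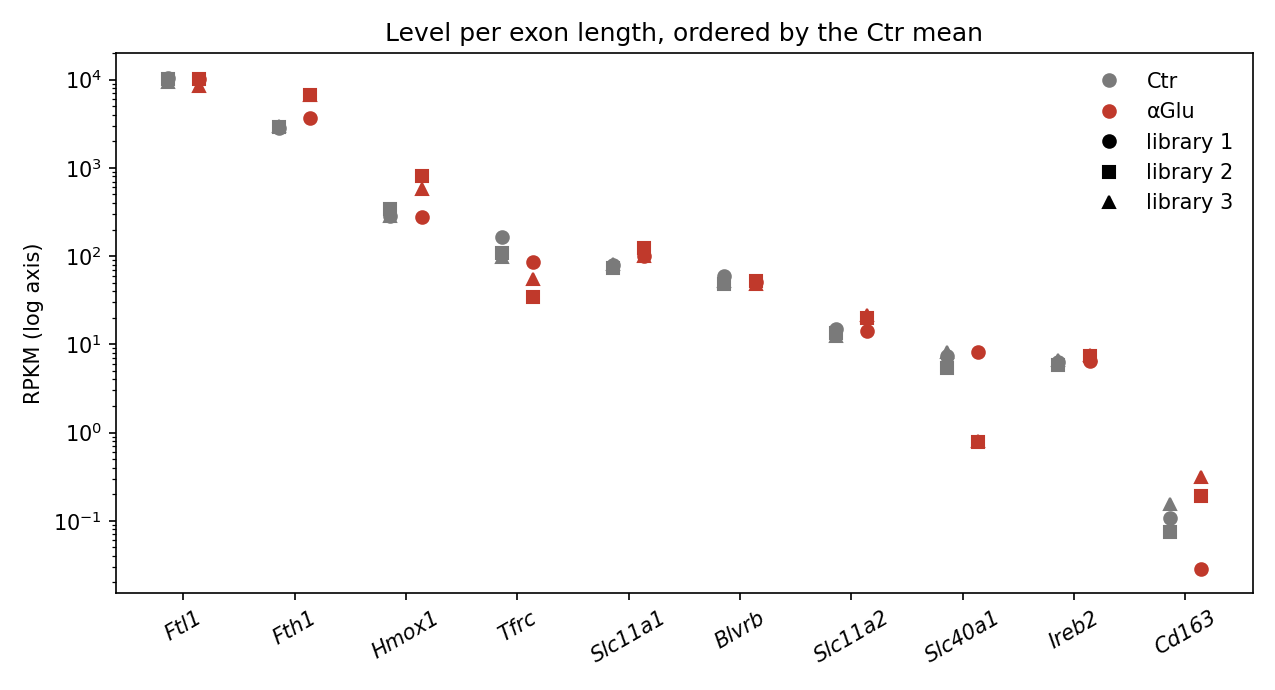
Deposited RPKM of the 10 genes on a log axis, ordered by the Ctr mean, with Ctr in grey and αGlu in red; each point is 1 library and the marker shape is its number. Levels run from about 10063 RPKM for Ftl1 to 0.113 RPKM for Cd163 in Ctr, and the αGlu points of Slc40a1 split, with αGlu 1 at 8.19 RPKM and αGlu 2 and αGlu 3 at 0.781 and 0.805 RPKM.

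A further 84 genes of iron and heme biology were listed in 9 groups, and 66 of them were tested. None was called with all 6 libraries, where 0% of all genes were (smallest adjusted p 0.156). With an unadjusted p under 0.05, 11 of the 66 were higher and 7 lower, and the groups did not overlap for 7 that were higher and 8 that were lower. These totals, 18 and 15 of 66, stand against 24.7% and 30.2% of all genes, and the counts per group below against 12.7% of all genes higher and 11.9% lower at that p. The median log2 fold change was -0.07. DESeq2 and the likelihood-ratio test each called 6 of them on all 6 libraries, namely Cp, Hp, Lcn2, Spic and Hif1a as higher and Steap3 as lower. The background was 8.16% of all genes for DESeq2 and 7.53% for the likelihood-ratio test. Without αGlu 1, 7 rose and 5 fell, against 18.6% of all genes called. The 2 genes with the smallest unadjusted p of each group are described next, together with Bach1 and Nfe2l2.

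Iron uptake and endosomal reduction had 5 of 10 genes tested, 1 of them lower at an unadjusted p under 0.05. Steap3, a ferrireductase that reduces iron released from transferrin, was read at 94.6, 98.6 and 79.7 CPM in Ctr 1, 2 and 3. Its level was 66.1, 29.4 and 24.6 CPM in αGlu 1, 2 and 3, below every Ctr library as Tfrc was. Its log2 fold change was -1.19 with an SE of 0.38 (edgeR adjusted p = 0.164) and -1.75 without αGlu 1 (adjusted p = 0.000226). Slc39a8, a transporter of zinc, iron and manganese, had 3.26 to 4.22 CPM in Ctr, 3.73 CPM in αGlu 1 and 6.58 and 7.85 CPM in αGlu 2 and αGlu 3 (log2 fold change 0.67, SE 0.30).

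Of the genes of heme uptake, breakdown and transport, 11 of 13 were tested, 10 had a negative and 1 a positive log2 fold change, and 3 were lower and 1 higher at an unadjusted p under 0.05. Of all 11933 genes, 5733 had a negative log2 fold change, 11.9% were lower and 12.7% higher at that p, and no test of the group was made. The 1 with a positive value was Hp, haptoglobin, the carrier of free hemoglobin and the ligand side of the Cd163 complex. Hp was read at 1.95, 1.63 and 1.253 CPM in Ctr 1, 2 and 3 and at 0.860, 37.9 and 23.9 CPM in αGlu 1, 2 and 3. αGlu 1 was thus below all Ctr libraries and the other two were far above them. The log2 fold change was 3.70 with an SE of 1.17 (edgeR adjusted p = 0.162), and 4.25 without αGlu 1 (adjusted p = 9.78e-05). Abcg2, an exporter that carries porphyrins among other substrates, was lower without overlap, at 18.2 to 22.3 CPM in Ctr and 13.2 to 17.03 CPM in αGlu (log2 fold change -0.49, SE 0.14).

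Heme synthesis had all 12 genes tested and 0 at an unadjusted p under 0.05. Its lowest p values belonged to Uros, with a log2 fold change of -0.45 (SE 0.20), and Clpx, a chaperone that acts on the first enzyme of the pathway, with 0.17 (SE 0.08). Ferritin loading and ferritinophagy had 4 of 5 genes tested, also with 0 at that level. Ncoa4, the receptor that delivers ferritin to the lysosome, was read at 665.8, 612.5 and 638.6 CPM in Ctr 1, 2 and 3. The gene stood at 583.5, 176.4 and 170.7 CPM in αGlu 1, 2 and 3. All 3 were below the Ctr libraries, αGlu 1 by little and the other two by a wide margin. With all libraries, the log2 fold change was -1.04 with an SE of 0.51 (edgeR adjusted p = 0.251), and -1.88 without αGlu 1 (adjusted p = 4.81e-05). In αGlu 2 and αGlu 3, the transcript of the receptor for ferritin was thus low where that of the ferritin heavy chain was high. In these 2 libraries 65.9% of all genes did not overlap with Ctr, so such a pairing is not particular to these genes. Pcbp1, an iron chaperone that loads ferritin, had a log2 fold change of -0.18 (SE 0.10).

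Among genes of iron export, ferroxidases and the hepcidin axis, 4 of 11 were tested. Cp, ceruloplasmin, a ferroxidase that works with ferroportin, was read at 2.00, 1.17 and 2.51 CPM in Ctr 1, 2 and 3. It was read at 3.84, 36.9 and 53.95 CPM in αGlu 1, 2 and 3, all above the Ctr libraries. The fit gave a log2 fold change of 4.07 with an SE of 0.97 (edgeR adjusted p = 0.156), and 4.59 without αGlu 1 (adjusted p = 0.000106). Hence Cp was highest in the 2 libraries where Slc40a1 was lowest. Of all genes, 65.9% did not overlap with Ctr in these 2 libraries, so this pairing is not particular to Cp and Slc40a1. Hfe, a partner of the transferrin receptor, had 76.5 to 94.8 CPM in Ctr, 84.1 CPM in αGlu 1 and 154.7 and 192.0 CPM in αGlu 2 and αGlu 3 (log2 fold change 0.78, SE 0.30).

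Of the cytosolic iron sensors, Aco1, which encodes IRP1, the other iron regulatory protein beside IRP2, was lower without overlap. It stood at 122.7, 103.5 and 95.3 CPM in Ctr 1, 2 and 3 and at 89.1, 75.4 and 74.9 CPM in the αGlu libraries in the same order (log2 fold change -0.43, SE 0.13, edgeR adjusted p = 0.160). Fbxl5, the iron-sensing subunit of the ligase that marks IRP2 for decay, was higher without overlap, at 34.0 to 35.7 CPM in Ctr and 37.7, 50.1 and 48.1 CPM in the αGlu libraries in the same order (log2 fold change 0.38, SE 0.12). Neither difference reached 2-fold. Without αGlu 1 the log2 fold changes were -0.52 for Aco1 (adjusted p = 0.0164) and 0.49 for Fbxl5 (adjusted p = 0.00216).

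Mitochondrial iron and iron-sulfur cluster genes were all tested, and of the 15, 3 were higher and 1 lower at an unadjusted p under 0.05, where 24.7% of all genes passed. Hscb, a co-chaperone of cluster transfer, was read at 7.72, 8.23 and 10.9 CPM in Ctr 1, 2 and 3 and at 13.1, 14.1 and 13.4 CPM in the αGlu libraries in the same order (log2 fold change 0.59, SE 0.15). Abcb10, a transporter of the inner mitochondrial membrane, was read at 11.03 to 13.3 CPM in Ctr and at 9.004 to 9.76 CPM in αGlu (log2 fold change -0.41, SE 0.11). For both genes αGlu 1 lay with αGlu 2 and αGlu 3 and apart from Ctr.

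Lcn2, lipocalin 2, which binds iron-laden siderophores and is a known product of neutrophils and of inflamed Mφs, was the 1 siderophore gene tested of 3. Its level was 0.591, 0.543 and 0.557 CPM in Ctr 1, 2 and 3. In αGlu 1 it had 0 reads, which allows a level of up to 0.172 CPM for counting error only, and in αGlu 2 and αGlu 3 it stood at 105.5 and 62.3 CPM. The log2 fold change was 6.63 with an SE of 1.92 (edgeR adjusted p = 0.159), and 7.20 without αGlu 1 (adjusted p = 2.91e-05). Neutrophil markers summed to 107 to 160 CPM in Ctr and to 186, 539 and 609 CPM in αGlu 1, 2 and 3. Of the 9 markers, Csf3r carried nearly all of this, with 102.6 to 158.1 CPM in Ctr and 183.4, 536.2 and 607.5 CPM in αGlu 1, 2 and 3, and it is also expressed in Mφs. The defining marker Ly6g had 0 reads in all 6 libraries, and Elane, Camp, Ltf, Ngp and S100a9 were each at most 1.63 CPM in any library and at or under 0.0944 CPM in αGlu 2 and αGlu 3. S100a8 and Mpo reached at most 2.11 and 2.59 CPM. The part of neutrophils in the values of Lcn2 and Hp was not tested.

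The regulators of heme and iron genes were all tested, and of the 10, 3 were higher and 1 lower at an unadjusted p under 0.05, against 12.7% and 11.9% of all genes. Spic, the factor that drives the program of iron-recycling Mφs, was read at 5.32, 5.14 and 6.08 CPM in Ctr 1, 2 and 3 and at 7.80, 30.5 and 22.2 CPM in αGlu 1, 2 and 3. All αGlu libraries were above the Ctr libraries (log2 fold change 1.87, SE 0.48, edgeR adjusted p = 0.156), and without αGlu 1 the log2 fold change was 2.25 (adjusted p = 0.000193). Hif1a, a transcription factor of the response to low oxygen, stood at 87.7, 82.8 and 84.7 CPM in Ctr 1, 2 and 3. In αGlu 1, 2 and 3 it stood at 94.6, 437.1 and 441.5 CPM. Hif1a had a log2 fold change of 1.93 with an SE of 0.56 (edgeR adjusted p = 0.159), and 2.36 without αGlu 1 (adjusted p = 1.58e-05).

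Bach1, the heme-sensing repressor of Hmox1 and the ferritin genes, was read at 145.7 to 169.3 CPM in Ctr and at 131.7 to 157.7 CPM in αGlu (log2 fold change -0.08, SE 0.11). Nfe2l2, which encodes NRF2, the activator of the same genes, was read at 286.4 to 301.9 CPM in Ctr and at 271.6 to 320.9 CPM in αGlu (log2 fold change 0.03, SE 0.10). For both, the αGlu range reached below and, for Nfe2l2, also above that of Ctr. Their mRNA levels do not report the activity of the proteins, which is known to be set by heme binding and protein decay.

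**Figure D4:**
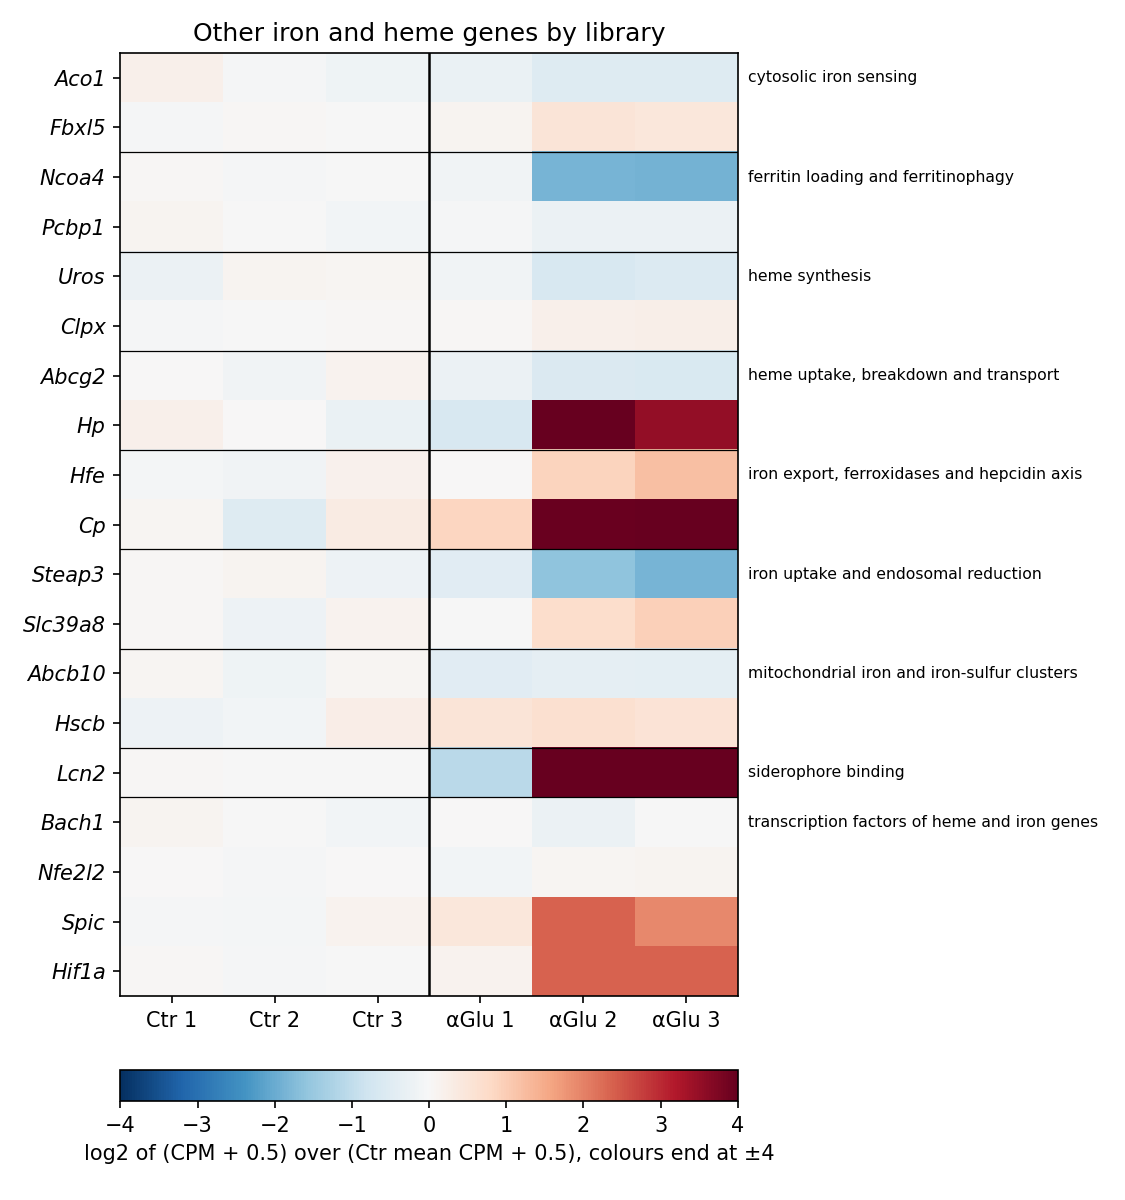
Log2 of (CPM + 0.5) in each library over (the Ctr mean CPM + 0.5) for the 19 genes of the 9 groups named by rule. Red is above and blue below the Ctr mean, and colours end at ±4. αGlu 2 and αGlu 3 carry the strong colours of Hp, Cp, Lcn2, Spic, Hif1a, Ncoa4 and Steap3, whereas αGlu 1 stays close to the Ctr libraries for most of the 19 genes.

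As a description, the genes with the profile most like that of Slc40a1 over the 6 libraries were Plxdc1, Ganc and Abhd12 (Pearson r of log2 CPM 0.997, 0.997 and 0.996). For Hmox1 they were Sumf2, Ppp1r15a and Psmb5 (0.998, 0.997 and 0.997). The candidates were 8512 genes whose log2 CPM averaged 3 or more. For each profile, all 6 points come from the same libraries, where αGlu 2 and αGlu 3 differ from the rest for many genes.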

How the data were processed

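RNA of M2 Mφs was sequenced from stranded mRNA libraries (Illumina). For annotation and normalization the authors used the RNA-seq Analysis Portal of QIAGEN, and the submitters' processing notes name GRCm38. The aligner, the annotation and the handling of multi-mapped reads are not given in the sources used here. The deposited counts are unnormalized exon reads per gene, 1 column per library. The authors also gave RPKM, in which exon length and library size are divided out. Their deposited TPM values have the same total in every library. The deposited signal headed CPM, in which the authors divided counts by an effective library size, was not used. A final row without a gene name was dropped. All 24 value columns matched a library.

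Tests used the counts. Genes were filtered with filterByExpr (minimum count 10, minimum total 15), scaled by TMM and fitted with edgeR 4.0.16 (quasi-likelihood, group only, two-sided) in R 4.3.3. P-values were adjusted by Benjamini-Hochberg over all genes tested, and calls needed both an adjusted p below 0.1 and a log2 fold change beyond 1 in size. The SE is the absolute log2 fold change over the root of F, and log2 CPM had a prior count of 2. Alternatives were DESeq2 1.42.0, limma-voom (limma 3.58.1), an edgeR likelihood-ratio test, other scaling (RLE, upper quartile, no factors), other filters on low counts, no fold limit, a replicate block and each library left out. The procedure was tested on simulated data. Floors of 3 reads cover counting error only.

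The 10 genes and all lists were chosen with earlier results of these data known. Named besides the 10 genes were, per list, the 2 tested genes with the smallest unadjusted p, always Bach1, Nfe2l2, Spic, Aco1 and Ncoa4, and the 3 genes most correlated with Slc40a1 and with Hmox1. Retnla, the other marker genes named singly, Blvra and the genes named as called by other tests were added after their values were seen. Skp1 is listed in the table as Skp1a. Marker lists other than the macrophage, M2, erythroid and neutrophil ones summed to 0.315 to 1.14 CPM (dendritic), 1.01 to 7.18 CPM (fibroblast) and 0.0836 to 0.283 CPM (lymphocyte). UTR sites and gene positions come from GENCODE M21, matched by Ensembl identifier for all 10 genes.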

Additional observations from a re-analysis of the deposited data

How the results depend on the processing

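With all 6 libraries and edgeR's quasi-likelihood test, 0 genes, 0 of the 10 genes and 0 of the 66 tested list genes were called, and the counts were also 0 with RLE or upper-quartile factors, no scaling factors, both other filters, limma-voom and no fold limit. DESeq2 called 1119 genes, 1 of the 10 and 6 list genes. The likelihood-ratio test called 899, 1 and 6. Leaving out single libraries gave 0 to 2290 genes, 0 to 5 of the 10 and 0 to 12 list genes, and each highest count came without αGlu 1, while the other 5 gave 0. An added alternative, no fold limit without αGlu 1, gave 6055, 7 and 37. The number of the 10 genes without overlap was 3 with all libraries and 3 to 9 without single libraries, 9 without αGlu 1 and 5 without Ctr 3. With the replicate number as a block, 17 genes were called, and 0 of the 10 and 0 list genes. Equal numbers are not stated to pair libraries. The deviations of equal-numbered libraries correlated at 0.076, 0.065 and 0.154, above those of unequal-numbered libraries, at -0.112 to 0.046. All of these values are small, and they do not settle whether equal numbers pair. The main fit assumed no pairing because none is stated. Single log2 fold changes of the 29 member and list genes named by rule changed sign in 2 cases, both without αGlu 3. Leaving out single libraries gave -0.034 to 1.02 for Cd163 and -0.0149 to 0.0951 for Nfe2l2. Library size alone moved the median log2 fold change of all genes from 0.016 to 0.1004. No row was named as a Fth1 copy by a pseudogene symbol, so summing copies was not run for it. Copies under other names were not searched. The common dispersion was 0.069 with all libraries and 0.020 without αGlu 1, and the cause was not tested.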
